A study of Mus musculus with 3 samples.

Results

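The cells described here are 990 of 19482 cells of the mouse bone-lining fraction that carried transcripts of Igfbp6, S100a4, Cd34 and related connective tissue genes. They were chosen by their measured counts: a cell was taken where at least 3 of the 6 genes S100a4, Igfbp6, C1qtnf7, Cdh13, Meox2 and Cd34 had a unique molecular identifier (UMI, 1 counted transcript). Such a cell also had 0 UMIs of the leukocyte gene Ptprc, under 10 UMIs of Cxcl12, and under 3 UMIs summed over the 6 tendon genes Mfap4, Tnmd, Kera, Chodl, Ptx4 and Scx. The 14 genes of this gate are therefore described below and never tested. The gated cells were 170 of 2527 cells in replicate 1, 351 of 6725 in replicate 2 and 469 of 10230 in replicate 3. These are 6.73% (95% exact Clopper-Pearson interval 5.78 to 7.77), 5.22% (4.70 to 5.78) and 4.58% (4.19 to 5.01) of cells, or 5.51 ± 1.10% (SD, n = 3). Intervals cover counting error only.

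The study asked which mesenchymal cells line the endosteal bone surface and support blood stem cells, and sequenced single cells of this fraction. All 3 libraries belong to 1 group, Alcam_BLC, of wild-type mice with no treatment. The study's methods give 6 to 12 weeks as the age of its mice and list C57BL/6JJcl among them, but the labels do not name the strain of these libraries. Cells released by collagenase from flushed femora, tibias and iliac bones were stained for CD45, Ter119, CD31, Alcam and Sca-1, and Alcam+Sca-1- bone-lining cells (BLCs) lacking the other 3 antigens were sorted, so the sort removed Sca-1+ cells. No label names an animal, a batch or a date, so the error given below is the spread between libraries, which may be technical.

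Fibroblasts of connective tissue build and hold the collagen matrix. In many organs a Cd34-bearing fibroblast lies in the adventitia of vessels and in fascia, where Pi16 and Dpp4 mark an immature state and Clec3b, Mfap5, Gsn and Fbln2 are commonly high. At the bone surface the neighbouring connective cells are reticular stromal cells, which make Cxcl12 and stem cell factor for blood stem cells, tendon and ligament cells, which anchor collagen to bone, and the cells of joint cartilage.

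Replicate 1 stood apart in the make-up of its cells, and this touches each comparison below. Cells with at least 10 UMIs of 5 cartilage genes (Acan, Col2a1, Col9a1, Col9a2 and Col11a2) that passed no other gate were 11.7% of cells in replicate 1 but 84.1% and 80.6% in replicates 2 and 3. Cells with at least 10 Cxcl12 UMIs were 24.7%, 1.41% and 1.22%. Total depth was 20985636, 79905165 and 69890252 UMIs. The gated cells had a median of 6066.5, 8169 and 4546 UMIs, against 5628, 10189.5 and 6077 in all other cells. As a whole the gated cells were therefore not deeper in replicates 2 and 3. These medians pool cell types and do not show whether the gate favoured deeper cells within a type. The share of gated cells was 0.894% after each cell was thinned to 1000 UMIs. The pairs of libraries shared 5, 9 and 27 cell barcodes, none of them between gated cells.

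The genes that chose the cells are given first, as a description. Levels are UMIs of a gene in the summed cells of a library, as CPM, the usual scaling by all UMIs of those cells. Igfbp6, a secreted binding protein for insulin-like growth factor 2 (chromosome 15, 102144362 to 102149511, plus strand, GRCm38), stood at 1569, 830 and 968 CPM in replicates 1, 2 and 3, and 92.6 to 93.8% of gated cells held a UMI of it. S100a4, a calcium-binding protein of motile and fibroblastic cells (chromosome 3, 90603771 to 90606045, plus strand), stood at 1006, 928 and 1322 CPM and was seen in 85.2 to 93.6% of cells. These 2 genes carried most of the gate. The cadherin Cdh13 (chromosome 8, 118283733 to 119324921) followed in 66.3 to 70.6% of cells at 211, 152 and 204 CPM, and the homeobox gene Meox2 (chromosome 12, 37108540 to 37179534) in 41.2 to 56.4% at 96.9, 87.5 and 103 CPM. Cd34, a sialomucin of vessels, stem cells and fibroblasts (chromosome 1, 194938819 to 194961279, plus strand), was seen in only 29.1 to 34.7% of gated cells, at 102, 53.1 and 77.6 CPM. C1qtnf7, a secreted C1q-related protein (chromosome 5, 43515538 to 43618803), was seen in 23.5 to 37.7% of cells at 101, 59.5 and 108 CPM. After each cell was thinned to 1000 UMIs, Igfbp6 remained in 47.6 to 61.8% of cells and Cd34 in 5.70 to 10.7%.

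Set beside other cells of the same libraries, the gate genes differed in how far they set these cells apart. Igfbp6 was at a like level in tendon-like cells, which are the Ptprc-negative cells with at least 3 UMIs of the 6 tendon genes (1274, 868 and 1283 CPM, 89, 128 and 112 cells). Meox2 was also at a like level there, at 167, 73.2 and 89.3 CPM, and the library ranges of both genes overlapped those of the gated cells. Cd34 was 13.7, 16.8 and 14.2 CPM in tendon-like cells and C1qtnf7 was 1.72, 2.02 and 7.09 CPM, below every library of the gated cells. As a background for free RNA, Ptprc-positive cells, which should lack Igfbp6, held a UMI of it in 2.50 to 5.53% of cells at a median depth of 21485, 20265.5 and 11580 UMIs. Cd34 is also a blood progenitor gene, and 21.4 to 34.2% of these Ptprc-positive cells had a UMI of it, or 2.80 to 5% after thinning.

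**Figure D1:**
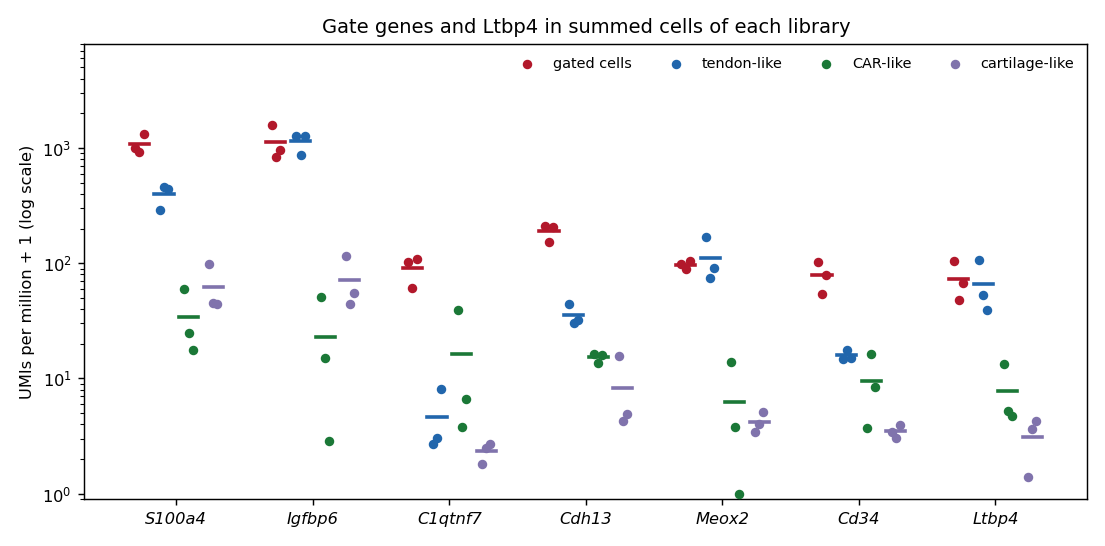
CPM plus 1, on a log scale, of the 6 gate genes and Ltbp4 in the summed cells of each library (points) with the mean of the 3 libraries (bars), for the gated cells and 3 other gated populations. Igfbp6, Meox2 and Ltbp4 of tendon-like cells overlap the gated cells, whereas Cd34, C1qtnf7, Cdh13 and S100a4 of every other population lie below them.

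In the plot of gate genes, Ltbp4 is the 1 marker named for these cells that the rule did not use. Ltbp4 codes for a latent TGF-beta binding protein of elastic fibres (chromosome 7, 27305136 to 27337692, minus strand). It stood at 104, 47.3 and 66.0 CPM in the gated cells, 105, 51.7 and 38.3 CPM in tendon-like cells, and 0.405 to 12.2 CPM in the other populations. Its library range in the gated cells overlapped that of the tendon-like cells and lay above those of the others.

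The name Cd34 Igfbp6 fibroblast-like cells was only in part borne out, so the cells are called gated cells here. General fibroblast matrix genes were high in each library: decorin (Dcn) at 14351, 10718 and 11419 CPM, type III collagen (Col3a1) at 1292, 1636 and 1901 CPM, and the actin-severing protein gelsolin (Gsn) at 4787, 3292 and 3560 CPM. The markers of the immature adventitial state were near the limit of detection in the gated cells. Pi16 gave 3, 5 and 3 UMIs, Dpp4 gave 4, 8 and 2 UMIs, and a UMI of either was found in 7, 11 and 4 gated cells, too few for a test. A Pi16 UMI was found in 1.76%, 1.42% and 0.426% of gated cells in replicates 1, 2 and 3, against 0%, 0.478% and 0.206% of cartilage-like cells (those counted above by their cartilage UMIs). The deeper Ptprc-positive cells held one in 11.6 to 18.3% of cells. Tendon-like cells held one in 14.6%, 3.125% and 1.79% of cells in replicates 1, 2 and 3. A Dpp4 UMI was found in 26.97%, 7.03% and 0.893% of tendon-like cells, against 2.35%, 1.71% and 0.426% of gated cells. Median depth was 6172, 8847 and 5277 UMIs in tendon-like cells, against 6066.5, 8169 and 4546 in gated cells. These differences were not tested. Tcf21, a transcription factor of some organ fibroblasts, was 0 in all libraries.

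Genes of joint cartilage, tendon insertion and bone were abundant in the same cells. Lubricin (Prg4) stood at 10020, 9556 and 15179 CPM and cartilage oligomeric matrix protein (Comp) at 5700, 8406 and 8584 CPM. Bone sialoprotein (Ibsp) stood at 8616, 9863 and 7825 CPM, although in replicate 1 a single cell held 53.4% of the Ibsp UMIs. An Ibsp UMI was found in 45.9%, 80.9% and 71.4% of gated cells in replicates 1, 2 and 3. Prg4 and Comp levels did not vary with the library as much as cartilage collagen did. Col2a1, the main collagen of cartilage, was 1071 CPM in replicate 1 and 11718 and 8546 CPM in replicates 2 and 3. A Col2a1 UMI was found in 11.8 to 99.4% of gated cells, and also in 4.14 to 98.3% of the deeper Ptprc-positive cells of the same libraries. After thinning to 1000 UMIs it was found in 5.88%, 70.1% and 66.2% of gated cells and in 0.699%, 28.3% and 40.3% of Ptprc-positive cells.

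Of the gated cells, 14, 193 and 156 (8.24%, 55.0% and 33.3%) held at least 10 UMIs of the 5 cartilage genes, or 363 in all (36.7%). In cells below that limit the named markers were nearly even between libraries. Cd34 was 121, 134 and 127 CPM there, against 5.10, 21.4 and 36.7 CPM in cells above it, and Ltbp4 was 121, 124 and 113 CPM against 15.3, 17.2 and 27 CPM. The tetranectin gene Clec3b was 86.9, 67.6 and 91.8 CPM below the limit and 0, 12.2 and 16.7 CPM above it. In each of these 3 genes the groups did not overlap. In replicate 1 the 14 cells above the limit were shallow. A count of 3 corresponds to 15.3 CPM there, and none of the 3 genes exceeded it. Cells marked by the highest doublet scores, taken at 0.8% per 1000 cells, were 1.76%, 8.26% and 13.0% of gated cells, against 2.02%, 5.38% and 8.18% of all cells. The part of doublets and free RNA in the cartilage UMIs was not tested.

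The edge of the gate was gradual. Among cells that passed its other conditions, 191, 458 and 602 had 2 of the 6 genes and fell just outside, and 102, 189 and 239 had 3 and fell just inside. Just outside, Col3a1 was 1102, 544 and 678 CPM, and just inside it was 1323, 1121 and 1387 CPM. Cd34, 1 of the 6 genes counted, was 39.8, 13.8 and 19.9 CPM outside and 71.0, 22.6 and 36.9 CPM inside. The count itself favours that direction, so Cd34 tells nothing more about the edge. Col3a1, which the rule did not use, was lower outside in each library. The median UMIs of the 5 cartilage genes per cell were 1, 83 and 43 outside and 0, 18 and 8 inside, so in replicates 2 and 3 the edge also divided cells by cartilage transcripts. Comp hardly changed across the edge in replicates 2 and 3 (7864 and 8573 CPM outside, 7965 and 8664 CPM inside). In replicate 1 it was lower outside, at 3776 CPM against 5679 CPM inside. Only 2, 14 and 12 cells had all 6 genes.

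**Figure D2:**
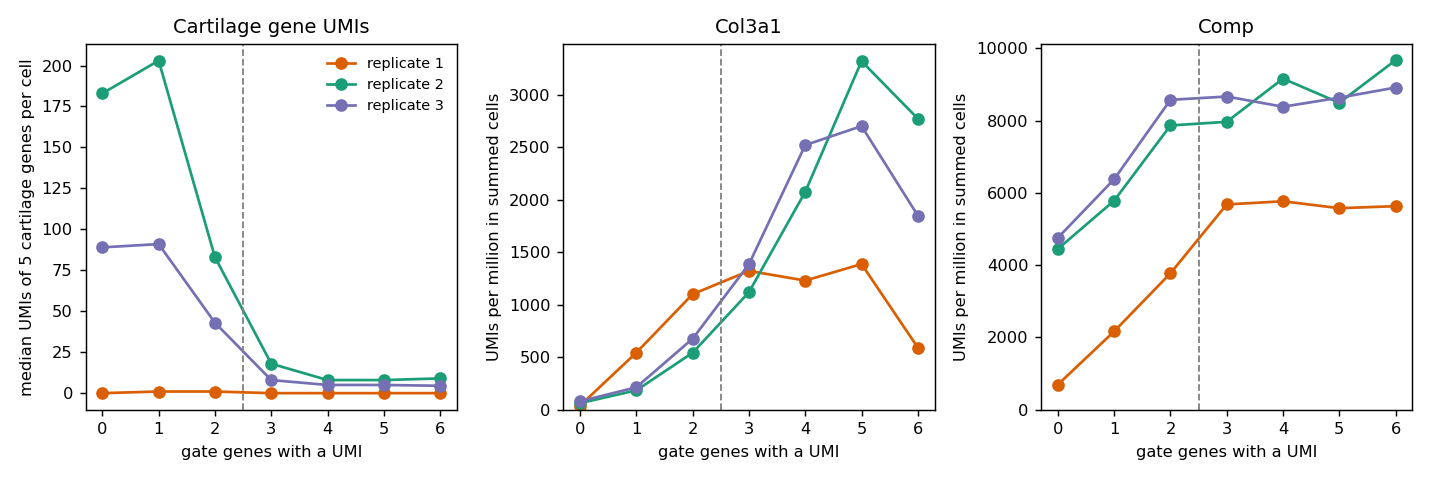
Median UMIs per cell of 5 cartilage genes (left) and CPM of Col3a1 (middle) and Comp (right) in the summed cells, against the number of gate genes with a UMI, for cells that pass the other conditions of the gate (lines: libraries; dashed line: the limit of 3 genes). Cartilage UMIs fall between 1 and 3 gate genes in replicates 2 and 3 and are near 0 throughout in replicate 1, while Comp varies little from 3 gate genes on.

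In the plot by number of gate genes, the change is a slope and not a step, so the limit of 3 genes draws a line through a range of cells. Col3a1 rose in replicates 2 and 3 to 3320 and 2702 CPM at 5 gate genes, whereas replicate 1 stayed at 1388 CPM.

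Clustering the gated cells by themselves gave 10 clusters, which are called by number and by the genes that led them. They were made from these genes, so their levels are descriptions with no test. The largest, cluster 1 (230 cells), was led by Igfbp5, an IGF-binding protein, the tendon matrix gene Thbs4 and Col1a1, and 70.9% of its cells had at least 4 of the 6 gate genes. It held much of the C1qtnf7 signal, at 256, 260 and 239 CPM in replicates 1, 2 and 3, with Cd34 at 152, 136 and 187 CPM. Cluster 3 (168 cells) was led by the chaperone clusterin (Clu), decorin and Angptl7, a secreted angiopoietin-like protein. In it decorin (Dcn) reached 27362, 32313 and 35772 CPM and Angptl7 1967, 2493 and 4157 CPM. Cluster 3 also held 295 of the 333 Clec3b UMIs of all gated cells, and Npy (597, 283 and 588 CPM), the precursor of neuropeptide Y. Cluster 4 (155 cells) was led by the cytokine-like gene Cytl1, the aggrecanase Adamts5 and fibronectin (Fn1), and had Col3a1 at 3420 CPM over all libraries. Cluster 6 (59 cells) was led by Prg4, at 20797 CPM, and by stress-response genes such as Errfi1, Cdkn1a and Hmox1.

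The 4 clusters 1, 3, 4 and 6, grouped after their values were seen, together made up 3.13%, 3.14% and 3.15% of all cells in replicates 1, 2 and 3. Their summed share of all cells was thus nearly the same in each library. Of the gated cells they were 79 of 170, 211 of 351 and 322 of 469, which is not an even share. The clustering centred and scaled each gene within each library. Cluster 8 (36 cells: 26, 7 and 3) had the highest Cd34 level of the clusters. At least 4 of the 6 gate genes were seen in 41.7% of its cells, against 70.9% in cluster 1. It had Cd34 at 577 CPM, Igfbp6 at 3147 CPM, the microfibril protein Mfap5 at 365 CPM and gelsolin (Gsn) at 9823 CPM, over all libraries. It was led by Apod, a lipocalin, Ebf2, a transcription factor, and Ccl11, the eotaxin chemokine, and it held 163 of the 167 Ccl11 UMIs. Its Prg4 and Comp were low, at 332 and 125 CPM. Pi16 was 23.1 CPM there, from 5 UMIs. In replicate 1, the 1 library with at least 10 cells of cluster 8, Cd34 was 437 CPM and decorin (Dcn) 24914 CPM.

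Other clusters carried transcripts of other tissues. Cluster 2 (195 cells) was led by Ibsp (25348 CPM), Snorc, a cartilage proteoglycan, and the Wnt inhibitor Wif1, and had a median of 81 cartilage UMIs a cell. Cluster 7 (46 cells) was led by Col2a1, at 31699 CPM. Its cells had a median of 20091 UMIs, and 80.4% of them were among the highest doublet scores, against 22.1% in cluster 2 and 0% in cluster 1. Cluster 5 (78 cells, 40 of them in replicate 1) was led by lumican (Lum), Mmp2, Ibsp and osteocalcin (Bglap, 1760 CPM). Cluster 10 (11 cells, 8 in replicate 1 and 3 in replicate 2) had the smooth muscle genes Acta2, at 5357 CPM, and Myh11. Cluster 9 (12 cells, 5 in replicate 2 and 7 in replicate 3) was led by Msmp, a small secreted cysteine-rich protein, at 508570 CPM. Of all Msmp UMIs in gated cells, 92.9% lay in 10 cells.

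**Figure D3:**
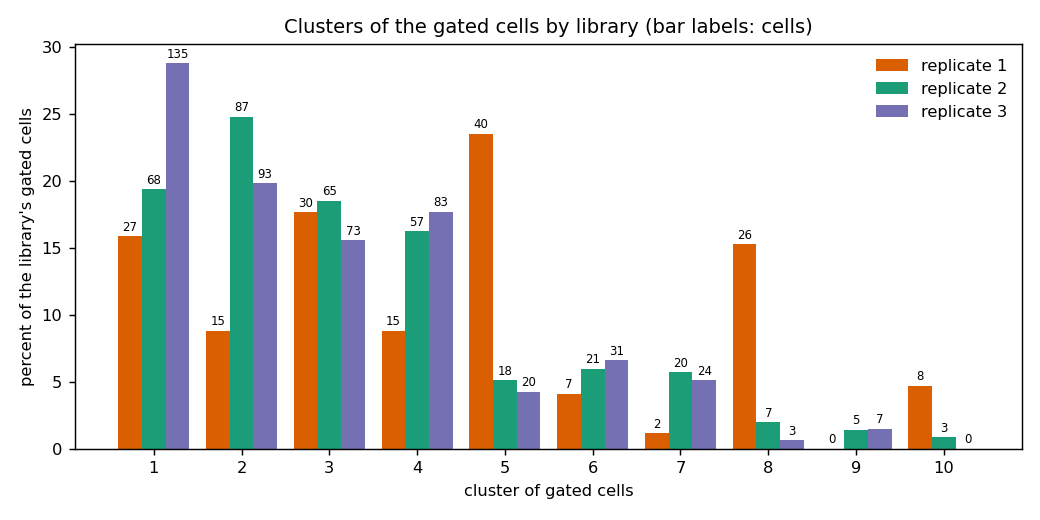
Percent of each library's gated cells in each of the 10 clusters (bars by library, cell counts above the bars). Cluster 3 takes 15.6 to 18.5% of every library, while clusters 5, 8 and 10 take a larger share of replicate 1 and clusters 7 and 9 of replicates 2 and 3.

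In the plot of clusters by library, cluster 1 takes 15.9%, 19.4% and 28.8% of the gated cells of replicates 1, 2 and 3, and cluster 4 takes 8.82%, 16.2% and 17.7%, so the clusters of the summed set are not each even. Cluster 8 is 15.3%, 1.99% and 0.640% of the gated cells of replicates 1, 2 and 3. With 1 library holding most of a cluster, the library and the cells cannot be told apart.

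**Figure D4:**
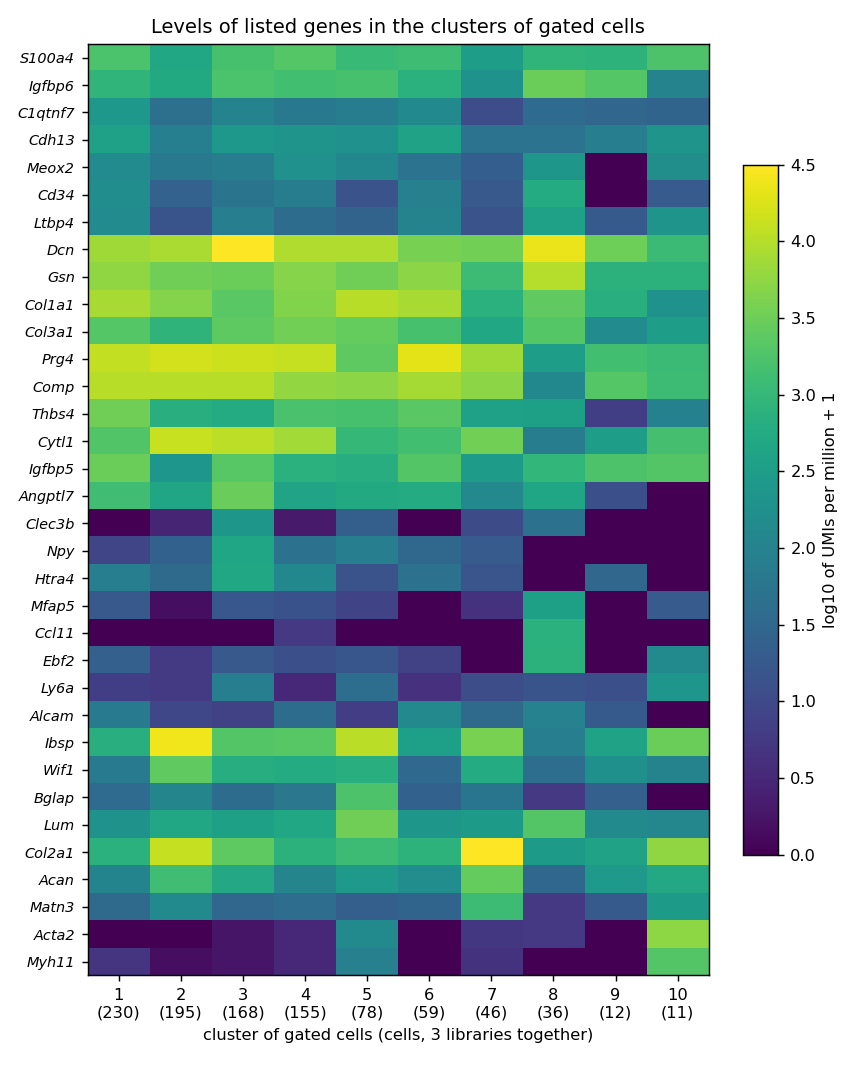
Log10 of CPM plus 1 of listed genes (rows) in each cluster of gated cells, all 3 libraries summed (columns, cell counts in brackets). Cd34, Mfap5, Ebf2 and Ccl11 are brightest in cluster 8, Clec3b, Npy and Htra4 in cluster 3, Ibsp in cluster 2 and Col2a1 in cluster 7.

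The map of cluster levels shows that S100a4, Igfbp6 and gelsolin were present in every cluster, whereas Cd34 ran from 0 CPM in cluster 9 and 13.1 CPM in cluster 5 to 577 CPM in cluster 8.

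The libraries differed among the gated cells themselves. Of 3812 genes with at least 50 CPM in a library, leaving out sex-linked genes, 88 were at least 4-fold higher in replicate 1 than in both other libraries and 33 at least 4-fold lower. Most of these differed in the same way among all other cells (60 of 88 and 31 of 33). Among the higher genes were Sfrp2, a secreted Wnt modulator (250, 0.826 and 1.05 CPM), Mmp13, collagenase 3 (359, 8.26 and 8.07 CPM), and Acta2 (495, 17.3 and 3.51 CPM). Immunoglobulin kappa (Igkc) led this list, with 6073 UMIs in replicate 1 and 0 in the others, and 93.7% of them lay in 1 cell. Even so, 146 gated cells of replicate 1 (85.9%) held an Igkc UMI. All other cells of that library stood at 54991 CPM of Igkc. The part of free RNA in these UMIs was not tested. Among the lower genes were several of cartilage. Matn3, a cartilage matrix protein, was 0, 318 and 227 CPM, chondromodulin (Cnmd) was 6.68, 620 and 450 CPM, and Col9a1 was 15, 675 and 458 CPM. Apod, which led cluster 8, was 2778, 140 and 27 CPM.

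Markers of other cell types were summed over lists to show what else the gate let through. The 8 haematopoietic genes summed to 106 to 135 CPM in the gated cells, against 29543 to 45245 CPM in Ptprc-positive cells. The 8 endothelial genes summed to 25.6 to 67.7 CPM, with Kdr at 0 in all libraries, and the 6 Schwann cell genes summed to 230 to 256 CPM. The 8 mural genes summed to 1577 CPM in replicate 1 but 104 and 51.2 CPM in replicates 2 and 3. The 10 chondrocyte genes summed to 4810, 27037 and 22164 CPM. The surface genes of the sort were low at the transcript level. A UMI of Alcam was found in 11.7 to 15.3% of gated cells and of Ly6a, which codes for Sca-1, in 5.33 to 10.0%.

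The gated cells were then compared with 3 populations of the same libraries, each summed per library and fitted in edgeR with the library as a block. A gene was called at a Benjamini-Hochberg adjusted p under 0.05 over all genes tested. Both sides of each comparison were made by a gate on transcripts, so genes that go with the gate genes had to differ, and calls describe these sums of cells. Cells of 1 library are not replicates, and n is 3 libraries a side. The 3 comparisons share the sums of the gated cells, so their calls are not independent and no overlap between them is given.

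Against CAR-like cells (Cxcl12-abundant reticular cells, 624, 95 and 125 cells with at least 10 Cxcl12 UMIs), the gated cells were higher in collagen and tendon matrix genes and lower in niche factors, adipocyte genes and cytokines. Of 11180 genes, 1543 were higher (13.8%) and 1638 lower (14.7%), with a median log2 fold change of 0.02 over all genes. Of the 13 collagen genes tested, 11 were higher and Col5a3 was lower, with a median of 2.09. Col3a1 stood at 1292, 1636 and 1901 CPM against 163, 188 and 162 CPM (log2 fold change 3.37, SE 0.18, edgeR adjusted p 5.04e-06), and Col15a1, a basement membrane collagen, at 109, 187 and 194 against 5.49, 13.9 and 14.9 CPM (4.12, SE 0.21). In both genes every library of the gated cells lay above every CAR-like library. Of 10 small leucine-rich proteoglycans 6 were higher, such as fibromodulin (Fmod, 3.37, SE 0.26), and podocan (Podn) was lower. Decorin was higher too (3.22, SE 0.34, edgeR adjusted p 0.0034), but without replicate 1 its adjusted p was 0.182. Of 11 pan-fibroblast genes tested 8 were higher, while Pdgfra (-0.56, SE 0.17) and Pdgfrb (-2.26, SE 0.21) were lower. Of 10 parenchymal fibroblast genes tested 5 were higher and 4 lower (Podn, Col4a1, Col4a2 and Cygb).

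Of 17 adventitial fibroblast genes tested against CAR-like cells, 10 were higher and 2 (Efemp1 and Fbn1, both of the fibulin and fibrillin families) lower, with a median of 2.76. Gelsolin stood at 4787, 3292 and 3560 against 362, 518 and 321 CPM (3.45, SE 0.21, edgeR adjusted p 2.32e-05), and tenascin-X (Tnxb), which spaces collagen fibrils, at 86.1, 74.9 and 83.2 against 7.23, 8.36 and 3.73 CPM (3.72, SE 0.26). Pi16 and Dpp4 had too few counts to be tested, and Mfap5 and Ly6a did not pass. Clec3b passed (72.7, 27.8 and 50.9 against 5.74, 13.9 and 0 CPM, adjusted p 0.0355), and without replicate 1 its adjusted p was 0.0899 and without replicate 3 it was 0.053. Of 7 tendon genes, 4 were higher: Thbs4 (1863, 851 and 1284 against 85.6, 32.0 and 63.5 CPM, log2 fold change 4.65, SE 0.17), Comp (3.54, SE 0.16), Fmod and Cilp2. Tnc and Egr1 were lower. Of 4 synovial lining genes tested, Prg4, Has1, a hyaluronan synthase, and Htra4, a secreted serine protease, were higher. Of 8 Wnt antagonists 4 were higher, such as Wif1 and Dkk3, and Sfrp1 was lower.

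The 12 genes furthest above CAR-like cells included 2 predicted genes (Gm17455 and Gm28153), and each of the 12 was called under every alternative run. Angptl7 stood at 568, 747 and 1269 CPM against 5.24, 18.1 and 1.87 CPM (6.75, SE 0.59, edgeR adjusted p 0.0024). Npy stood at 148, 59.2 and 115 against 2.49, 1.39 and 5.60 CPM (5.61, SE 0.31), and 72.1% of its UMIs in gated cells lay in 10 of the 74 cells that held any. Myoc, the secreted protein myocilin, stood at 551, 606 and 788 against 22.0, 13.9 and 5.60 CPM. In all 3 genes the groups did not overlap. Others were Tnn, tenascin-W of bone and tendon attachments (5.48), Htra4 (4.96), Thbs4 (4.65), Cst6, a cysteine protease inhibitor (4.41), Ahnak2 (4.33) and dystrophin (Dmd, 4.25).

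Of 7 niche factors 5 were lower than in CAR-like cells and none higher: Kitl, stem cell factor; Angpt1, a ligand of the Tie2 receptor; Lepr, the leptin receptor; Il7, a lymphoid growth factor; and Jag1, a Notch ligand. Lepr stood at 61.0, 28.9 and 25.3 against 1305, 851 and 919 CPM (-4.66, SE 0.19, edgeR adjusted p 3.50e-06). Kitl stood at 79.4, 16.2 and 4.56 against 1888, 1339 and 1290 CPM, and without replicate 2 its adjusted p was 0.134. Vcam1, an adhesion molecule for blood cells, stood at 44.3, 5.23 and 1.40 against 1507, 1790 and 1609 CPM but did not pass (adjusted p 0.0668). Of 12 adipogenic genes 9 were lower and none higher, led by adiponectin (Adipoq, 2.51, 0 and 0.702 against 1268, 2075 and 2024 CPM). Of 9 chemokines and cytokines tested 6 were lower, Il6, Csf1, Tslp, Cxcl14, Cxcl16 and Ccl19 (which has near-identical copies, so its count is uncertain), and of 8 complement genes C4b, Cfb and C1ra were lower. Haptoglobin (Hp) stood at 10.0, 2.75 and 7.02 against 4205, 6863 and 4976 CPM (-9.65, SE 0.62), and Esm1, the proteoglycan endocan, fell by 9.70 on the log2 scale. In each of these genes the groups did not overlap.

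Of the 8 genes furthest below CAR-like cells, 5 had 0 UMIs in all 990 gated cells. With a floor of 3 counts over the 3 summed libraries, kininogen (Kng1) was at least 609-fold lower and the interferon-induced chemokine Cxcl9 at least 1053-fold. The interleukin-1 receptor antagonist Il1rn was at least 272-fold lower, neuregulin 3 (Nrg3) at least 203-fold and complement C6 at least 197-fold. These bounds pool libraries that weigh unequally in the groups. Within replicates 1, 2 and 3 the bounds were 92.9-, 331- and 218-fold for Kng1 and 193-, 290- and 88.7-fold for Cxcl9. They were 43.0-, 101- and 119-fold for Il1rn, 37.4-, 52.3- and 17.7-fold for Nrg3 and 25.2-, 147- and 115-fold for C6. Of 9 IGF axis genes, Igfbp3 (1.67, 1.38 and 0.351 against 297, 284 and 233 CPM), Igfbp4 and Igfbp5 were lower and Igfbp7 was higher. Of 14 elastic fibre genes 5 were lower, among them Fbln5 (-4.98, SE 0.28), and 3 higher, among them Ltbp4 (3.42, SE 0.26). Without replicate 2 there were 1914 calls in all and without replicate 3 there were 2046, against 3181. Acan, Snorc, Omd, Smoc2, Pdgfra and Srgn, called here, changed direction when cells with cartilage transcripts or certain clusters were left out.

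Against tendon-like cells (89, 128 and 112 cells), 250 of 9589 genes were higher (2.61%) and 344 lower (3.59%), with a median log2 fold change of 0.01. Of 12 pan-fibroblast genes Pdgfra was higher, Pdgfrb lower and 10 did not pass. Col3a1, at 723, 1441 and 1713 CPM in tendon-like cells, gave a log2 fold change of 0.45 (SE 0.14, edgeR adjusted p 0.117), and decorin gave 0.49 (SE 0.17, adjusted p 0.196). Ltbp4 gave 0.24 (SE 0.21, adjusted p 0.658). A p above the limit does not show that the levels were alike. Prg4 stood at 1147, 7863 and 13823 CPM in tendon-like cells and did not pass either (1.17, SE 0.93, adjusted p 0.681).

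The genes above tendon-like cells had mixed roles. Npy, at 148, 59.2 and 115 against 6.87, 7.39 and 4.25 CPM, gave 3.90 (SE 0.31, edgeR adjusted p 0.00034). Serpine2, a protease inhibitor of the matrix, stood at 1584, 980 and 1157 against 160, 218 and 265 CPM (2.58, SE 0.25). Cst6 (2.62) and Mustn1, a small protein of muscle and tendon (287, 101 and 121 against 41.2, 31.6 and 21.3 CPM, 2.34), were also higher, and in these 4 genes the groups did not overlap. Npy, Cst6 and Mustn1 were called under every alternative run. Npy also rested on few cells, since 72.1% of its UMIs lay in 10 of the 74 gated cells that held any. A single cell held 51.4%, 52.1% and 32.2% of the Npy UMIs of gated cells in replicates 1, 2 and 3. The adjusted p of Serpine2 without replicate 2 was 0.0501. The transcription factor Klf5 (2.52), Gdf10, a BMP-family ligand (2.49), the potassium channel Kcnt2 (2.37) and the Ras-like gene Rerg (2.29) were lost without replicate 2, at adjusted p 0.0872, 0.0923, 0.106 and 0.0546. Msmp (6.87, adjusted p 0.0252) and the chemokine Cxcl2 (2.39, adjusted p 0.0093) rested on a few cells, since 92.9% and 91.5% of their UMIs lay in 10 gated cells. Without replicate 2 the adjusted p was 0.106 for both. Cox4i2, a respiratory chain subunit (2.86), and the laminin receptor Itga6 (2.30) were lost without the library block, at 0.235 and 0.0767, and Itga6 also without replicate 2 (0.126) or replicate 3 (0.261).

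Adventitial genes went both ways against tendon-like cells. Of 16 tested, 5 were higher and 4 lower, with a median of 0.85. Gelsolin stood at 1004, 1406 and 1677 CPM in tendon-like cells (1.58, SE 0.24, edgeR adjusted p 0.021) and Tnxb at 34.3, 39.0 and 21.3 CPM (1.41, SE 0.23), both below every library of the gated cells. Creb5, a transcription factor, stood at 334, 312 and 311 against 70.4, 101 and 82.2 CPM (1.97, SE 0.16). Mfap5 went the other way, at 67.7, 7.98 and 9.83 against 208, 106 and 102 CPM (-2.73, SE 0.45), as did Fbln1, Fbln2 and Fbn1. The library ranges of Creb5 and Mfap5 did not overlap between the populations. Without replicate 2 the adjusted p was 0.104 for gelsolin, 0.098 for Tnxb and 0.127 for Mfap5, and Creb5 was called under every alternative run.

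Of 14 elastic fibre genes 5 were lower than in tendon-like cells, none was higher and 9 did not pass, with Fbln5, an elastic fibre assembly protein, at 30.1, 14.3 and 16.5 against 156, 65.2 and 73.7 CPM (-2.17, SE 0.18, edgeR adjusted p 0.00046). Col12a1, a fibril-associated collagen, stood at 338, 345 and 298 against 1384, 1142 and 977 CPM (-1.76, SE 0.13). The small proteoglycan osteoglycin (Ogn) stood at 312, 227 and 159 against 2352, 813 and 889 CPM (-2.34, SE 0.22). These 3 genes did not overlap between the groups and were called under every alternative run. Of the 7 tendon genes outside the gate, Mkx, a tendon transcription factor (35.1, 14.6 and 14 against 225, 76.6 and 85.1 CPM), and Thbs4 (-1.37, SE 0.18) were lower, Comp was higher (1.47, SE 0.14) and 4 did not pass. Of 13 collagens Col5a1, Col5a2 and Col15a1 were higher and 9 did not pass.

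The 8 genes furthest below tendon-like cells were scarce in the gated cells. Shisal2b had 0 UMIs and was at least 202-fold lower over the summed libraries. Within replicates 1, 2 and 3 its bounds were 85.6-, 53.7- and 37.7-fold. The synaptic C1q-like gene C1ql3 had 1 UMI and the glutamate receptor Grm7 had 2, for ratios over the summed libraries of 404 (counting interval 71.4 to 16062) and 234 (63.7 to 1946). Col22a1, a collagen of tissue junctions, stood at 16.7, 1.38 and 2.81 against 460, 157 and 129 CPM (-5.43, SE 0.31, edgeR adjusted p 0.00023). Gas2, a cytoskeletal protein, and Basp1, a membrane-bound protein of growing axons, were also lower (-4.92 and -4.49), as were the phosphatase Ptprt (-6.76) and the secreted factor Ccbe1 (-5.04). In each gene every library of the gated cells was below every tendon-like library. Without replicate 2 there were 45 calls in all, without replicate 3 there were 311 and without replicate 1 there were 1111, against 594. Without the library block there were 95, of which 94 were among the 594.

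Against cartilage-like cells (295, 5654 and 8242 cells), 8 of 17 adventitial fibroblast genes and 4 of 7 IGF axis genes were higher in the gated cells, and 5 of 8 osteoblast genes were lower. Of 11690 genes, 1183 were higher (10.1%) and 1167 lower (9.98%), with a median log2 fold change of -0.00. Of 17 adventitial genes 8 were higher and Pcolce2 was lower, with a median of 1.11. Clec3b stood at 72.7, 27.8 and 50.9 against 0.405, 0.262 and 0.152 CPM (7.32, SE 0.35, edgeR adjusted p 0.00072), and Mfap5 at 67.7, 7.98 and 9.83 against 0.405, 0.233 and 0.422 CPM (4.93, SE 0.37). Of 10 parenchymal fibroblast genes 6 were higher, such as Podn, and Penk and Smoc2 were lower. Of 11 pan-fibroblast genes, Col3a1 (1292, 1636 and 1901 against 109, 119 and 131 CPM, 3.52, SE 0.17), the growth factor receptor Pdgfra (202, 96.6 and 96.2 against 25.9, 15.1 and 14.1 CPM, 2.59, SE 0.12), Pdgfrb and Vim were higher and Col6a3 was lower. In Clec3b, Mfap5, Col3a1 and Pdgfra the groups did not overlap.

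Of the 12 genes furthest above cartilage-like cells, Fmo2, a flavin monooxygenase, led at 89.4, 42.1 and 45.6 against 1.21, 0.175 and 0.219 CPM (7.47, SE 0.30, edgeR adjusted p 0.00060). Igfbp5 stood at 2386, 862 and 1018 against 97.5, 38.8 and 32.6 CPM (4.47, SE 0.18), and of 7 IGF axis genes Igfbp4, Igfbp7 and Igf2 were higher too, while Igf2r was lower. Angptl7 (568, 747 and 1269 against 32.0, 54.9 and 70.7 CPM, 3.81, SE 0.15) and Ecm1, a secreted matrix protein (293, 182 and 192 against 12.1, 11 and 9.98 CPM, 4.07, SE 0.13), were also higher. These 4 genes did not overlap between the groups and were called under every alternative run. Serping1, the C1 inhibitor (298, 25.6 and 23.9 against 8.5, 1.15 and 1.03 CPM, 4.47), Ebf2 (130, 20.4 and 10.9 against 2.43, 0.540 and 0.455 CPM, 4.92) and the transporter Abca8a (3.80) were likewise called under every alternative, with the highest level in replicate 1. Aspn, a small proteoglycan of tendon and cartilage (4.60), Ltbp4 (4.38) and Ifitm3, an interferon-induced membrane protein (3.85), completed the 12 together with Clec3b and Col3a1. Without replicate 3 the adjusted p of Aspn was 0.0924 and of Ltbp4 0.0796. Most of the 12 did not set the gated cells apart from tendon-like cells. There Aspn (-2.60, edgeR adjusted p 0.00524) and Abca8a (-1.05, adjusted p 0.0203) were lower in the gated cells. Ecm1 was higher (1.94, adjusted p 0.00305), and the others of the 12 did not pass.

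Of 10 fibroblast transcription factors tested against cartilage-like cells, Twist1, Tbx18, Nr2f2 and Prrx2 were higher and none lower. Prrx2, of the limb mesenchyme, stood at 108, 58.9 and 81.4 against 11.3, 9.08 and 10.4 CPM (2.74, SE 0.14, edgeR adjusted p 0.00072). Of 11 periosteal or skeletal progenitor genes tested, Ctsk, Prrx1 and Aspn were higher and Itgav was lower, with Prrx1 at 296, 222 and 285 against 43.7, 40.2 and 42.5 CPM (2.44, SE 0.13). Both genes were above the cartilage-like cells in each library. Of 9 adipogenic genes, the zinc finger and EBF factors Zfp423, Ebf1, Ebf2 and Ebf3 were higher, whereas Pparg and Cebpa, which drive fat cell differentiation, did not pass. Of 7 complement genes 3 were higher, among them Serping1 and Cd55, which restrain complement, and C4b was lower.

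Of 8 osteoblast genes 5 were lower than in cartilage-like cells and none higher. Bglap stood at 410, 133 and 142 against 711, 814 and 659 CPM (-2.10, SE 0.32, edgeR adjusted p 0.0156), and Runx2, Sp7, Dmp1 and Col22a1 were also lower. Ibsp did not pass (-0.06, SE 0.16, adjusted p 0.821). Of the genes furthest below, F13a1, a transglutaminase subunit (48.5, 41.8 and 47.4 against 365, 229 and 248 CPM, -2.78, SE 0.20), was called under every alternative run. Col10a1, the collagen of hypertrophic cartilage (73.5, 42.1 and 87.4 against 846, 193 and 243 CPM, -2.57), the pump subunit Fxyd2 (-2.59), Fam155a (-3.17) and Fam89a (-2.79) were lost without replicate 3, at adjusted p 0.0856 for Col10a1. They were also lost without replicate 2, at 0.216 for Col10a1. Of the 5 chondrocyte genes outside the gates, Matn1 and Hapln1 were lower. Also among the 8 furthest below, immunoglobulin mu (Ighm, 307 CPM in replicate 1 of the cartilage-like cells and 2.83 and 3.25 CPM in the others) and beta globin (Hbb-bs), belong to blood cells.

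Of 4 synovial lining genes tested against cartilage-like cells, Htra4 (221, 92.5 and 105 against 83.3, 23.7 and 27.3 CPM, 1.57, SE 0.20) and Cd55 (2.14, SE 0.22) were higher, and Has1 and Prg4 did not pass. Prg4 (94898, 16509 and 23802 CPM in cartilage-like cells, log2 fold change -1.71, SE 0.70, edgeR adjusted p 0.156) was highest in replicate 1 of the cartilage-like cells. Comp (0.44, SE 0.13, edgeR adjusted p 0.0589), Cytl1 and decorin (0.87, SE 0.36, adjusted p 0.160) did not pass either. The count of calls rested on single libraries. Without replicate 3 there were 51 calls in all, of which 49 were among the 2350, without replicate 2 there were 527, and without replicate 1 there were 6175. With replicate 1 left out, 2349 of the 2350 genes were still called in the same direction.

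**Figure D5:**
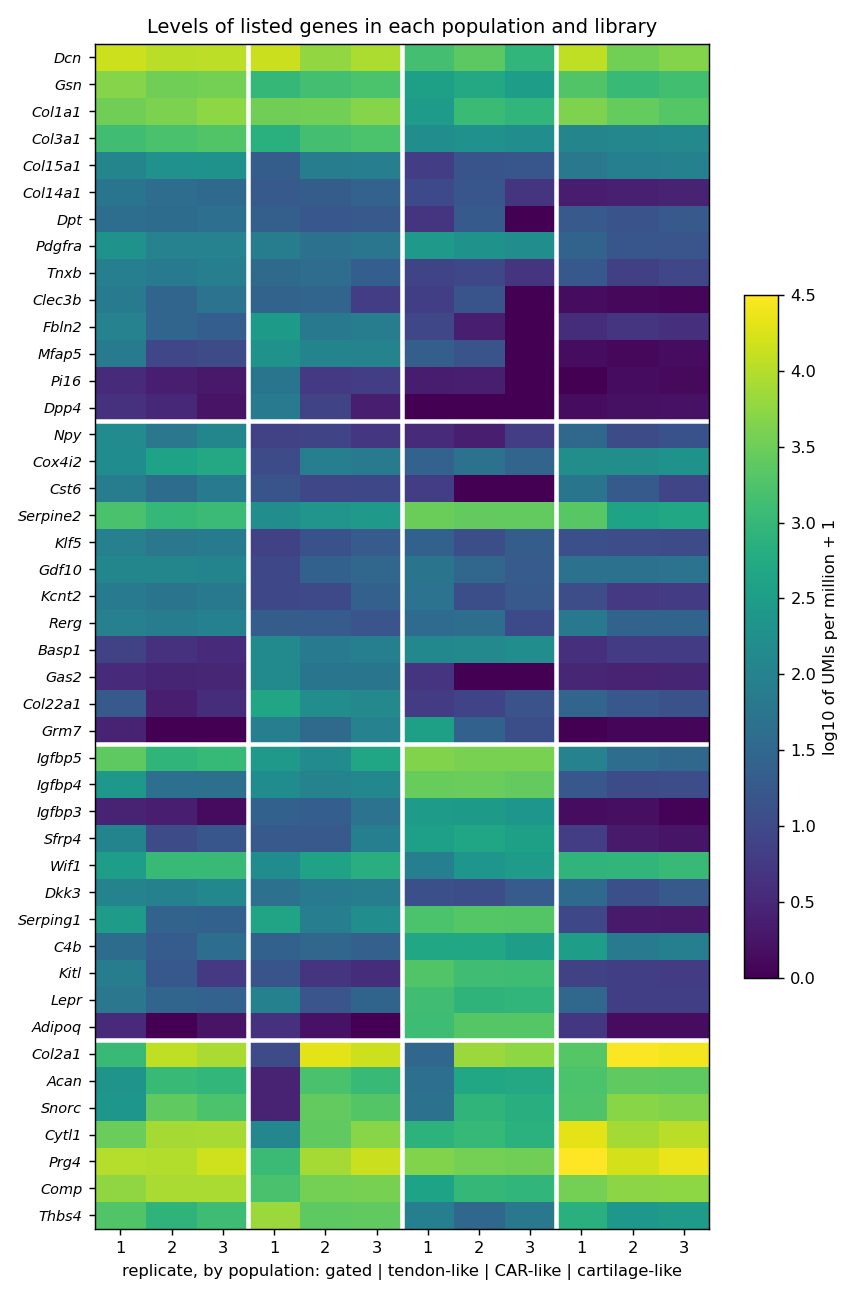
Log10 of CPM plus 1 of listed genes (rows) in each library (columns 1, 2 and 3 of each block) of the gated, tendon-like, CAR-like and cartilage-like cells, with white lines between fibroblast genes, genes that differ from tendon-like cells, secreted and niche factors, and cartilage genes. Col3a1 is bright in the gated and tendon-like cells and dim in the others, Kitl, Lepr and Adipoq are bright in CAR-like cells alone, and Col2a1 is dimmer in replicate 1 than in replicates 2 and 3 of every block.

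The map of levels by library shows Npy, Klf5 and Kcnt2 brighter and Basp1, Gas2 and Col22a1 dimmer in each library of the gated cells than in the tendon-like cells.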

How the data were processed

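Alcam+Sca-1- BLCs of 3 libraries were sequenced with 10x Genomics 3′ chemistry. The deposited values are raw UMI counts per gene and barcode, made by the authors with Cell Ranger (version 7.1.0) on mm10; the annotation release is not given in the sources used here. Gene positions are from a GRCm38 annotation whose gene IDs match the files. The files hold 20307 barcodes, fewer than the study states. Barcodes with under 200 genes or over 20% mitochondrial UMIs were dropped. Doublets were not removed in the main results; scores came from Scrublet in scanpy (version 1.11.5), whose automatic threshold marked 42, 1 and 0 cells, so the highest scores were removed as an alternative. UMIs were summed per library and population where it had at least 10 cells, and tested with edgeR (version 4.0.16: TMM, filterByExpr, robust quasi-likelihood test, library block), which was checked on simulated data. Alternatives were DESeq2 (version 1.42.0), other size factors, filters and gates. The gated cells were clustered with Leiden (resolution 0.6). The named genes were the listed genes and, for each comparison, the 12 highest and 8 lowest log2 fold changes among called genes of at least 50 CPM that moved alike in all libraries. For libraries, the rule took the 10 largest gaps each way, of which a few are given. The gate, the members and the gene lists were chosen with earlier results of these data known. Results for a few genes are not reported here.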

Additional observations from a re-analysis of the deposited data

How the results depend on the processing

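The share of gated cells (5.51%) was 2.45% when 4 of the 6 genes were required, 3.86% without cells of 10 or more cartilage UMIs, and 0.894% after thinning to 1000 UMIs. With clusters 1, 3, 4 and 6 alone, a choice made after seeing the data, it was 3.14%. Leaving out each library gave 4.90 to 5.97%. Against CAR-like cells, leaving out 1 library gave 1914 to 3482 calls (889 to 1633 higher, 1025 to 1849 lower). Against tendon-like cells it gave 45 to 1111 (14 to 476 higher, 31 to 635 lower), and against cartilage-like cells 51 to 6175 (46 to 2926 higher, 5 to 3249 lower). All populations came from the same libraries, so the library was the pairing and the main fit had it as a block. Without the replicate block, calls were 95 against tendon-like cells (35 higher, 60 lower) and 1355 against cartilage-like cells (757 higher, 598 lower). Without the low count filter there were 1221 calls against tendon-like cells (605 higher, 616 lower) and 1927 lower against cartilage-like cells. DESeq2 gave 159 higher against tendon-like cells. With clusters 1, 3, 4 and 6 alone there were 1034 against tendon-like cells (418 higher, 616 lower) and 3620 against cartilage-like cells (1898 lower). Other settings stayed within 1.5 times the main count.

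Log2 fold changes that turned direction were those of Acan (-1.24), Snorc (-0.90), Srgn (-0.21), Smoc2 (-0.12) and Pdgfra (0.019) against CAR-like cells and Wif1 (-0.21) against tendon-like cells when cells with cartilage UMIs were left out. With clusters 1, 3, 4 and 6 alone they were those of Acan (-0.16), Snorc (-0.93), Omd (-0.33) and Srgn (-0.38) against CAR-like cells and Wif1 (-0.39) against tendon-like cells. With 4 of 6 gate genes Srgn gave -0.91. The cause was not tested. Of the 20 genes named by size in each comparison, 20, 8 and 10 were called under all 12 alternatives against CAR-like, tendon-like and cartilage-like cells. Fewer of the other listed genes called in the main fits held throughout. These were 62 of 115, 4 of 48 and 7 of 67 in the same order, so the counts by list depend on the setting. The comparison of gated cells with and without a Pi16 or Dpp4 UMI, and its alternatives, could not be fitted, since only 1 library held 10 such cells. Depth limits the rarer markers: a count of 3 corresponds to 2.51, 0.826 and 1.05 CPM in the gated cells of replicates 1, 2 and 3.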

Other observations

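Beyond the comparisons, Lum and Penk varied within the gated cells by library. Lum, the proteoglycan lumican, was 1629, 432 and 410 CPM in replicates 1, 2 and 3, and Penk, the enkephalin precursor, was 135, 25.0 and 38.6 CPM. Thy1, a surface marker of fibroblasts, was 35.9, 2.48 and 2.46 CPM. Mineral-binding Spp1, in contrast, was 3502, 3741 and 4253 CPM, and Tnxb 86.1, 74.9 and 83.2 CPM. With 1 group of samples no test of these differences was made.

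The 12 cells of cluster 9 gave most of the Msmp counts of the gated cells. In 10 gated cells Msmp took over 20% of the cell's UMIs, and in all other cells it stood at 323, 3972 and 2435 CPM. Beside Msmp, this cluster was led by Fkbp2, Ssr4, Fkbp11 and Tmed3, genes of protein folding and transport in the secretory pathway.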
